A study of Homo sapiens with 21 samples.

Results

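The erythroid transcription factors GATA1, GATA2, TAL1, LMO2, LDB1, LYL1, KLF1, NFE2, GFI1B and ZFPM1, 10 genes chosen by name, direct red cell gene expression and were followed here through all groups of a K562 cell series. All 10 were found, each under a single Ensembl gene identifier, among the 61541 genes of a gene count table and the 57300 gene identifiers of a set of exon bin counts, in which they hold 149 of 685251 bins. K562 is a human leukaemia cell line with erythroid features that grows in suspension. The series holds 21 RNA-seq libraries in 7 groups of 3, and its stated questions are what enhancer RNAs (eRNAs) transcribed from the enhancer 34 kb upstream of MYB do to exon usage, and which genes respond to different forms of the MYB protein.

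All 7 groups are K562 cells, cultured in the same medium with serum, and differ by the eRNA or construct they overexpressed or by serving as its control. In the first experiment the cells overexpressed the eRNA labelled 34kn and were set against 3 libraries labelled 34kn control, and in the second they overexpressed the eRNA labelled 34kp and were set against 3 libraries labelled 34kp control. In the third experiment cells carried an empty vector, a MYB overexpression construct, or a construct labelled NMYB, the N-terminally truncated MYB of the design text. The deposited names of the 34kn and 34kp controls carry the tag WT, without saying whether those cells held a control construct. The labels also do not say how the constructs were delivered or whether replicates were separate cultures. Each p-value below therefore measures only the spread between these libraries, which may be technical.

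These factors work as interlocking complexes. GATA1 binds GATA sites and takes over many of them from GATA2 as progenitors become red cells, with ZFPM1 (also called FOG1) as its cofactor. TAL1 or its close relative LYL1 pairs with E proteins on E-box DNA, and LMO2 and LDB1 bridge that pair to GATA1 and hold enhancers close to promoters. KLF1 binds CACCC boxes and activates adult globin and many red cell genes, NFE2 pairs with small MAF proteins at globin enhancers, and GFI1B is a repressor that recruits histone demethylase and deacetylase complexes. MYB keeps progenitors dividing and is itself a target of GATA1.

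Promoter sequence is shown for KLF1 and ZFPM1, whose levels differed most between libraries of the eRNA experiments, and for TAL1, whose exon bin near this start is described further on. Each run is the 250 bases before a start site in the RefSeq table (build GRCh38.p14), written 5′ to 3′ on the gene's strand, and 8 of the 10 factors had at least 1 entry there. KLF1 is on the minus strand at chr19:12887202-12887451, TAL1 on the minus strand at chr1:47232336-47232585 and ZFPM1 on the plus strand at chr16:88453030-88453279. Capitals mark GATA motifs (AGATAA or AGATAG, and TGATAA or TGATAG, on either strand) in the KLF1 and TAL1 lines and CACCC-type motifs (CCNCNCCC on either strand, overlapping matches included) in the ZFPM1 line.
KLF1: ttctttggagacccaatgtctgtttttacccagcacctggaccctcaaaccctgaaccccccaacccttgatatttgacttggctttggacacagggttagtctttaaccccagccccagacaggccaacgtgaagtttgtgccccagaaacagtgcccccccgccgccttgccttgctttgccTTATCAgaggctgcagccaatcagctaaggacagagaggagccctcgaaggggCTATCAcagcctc
TAL1: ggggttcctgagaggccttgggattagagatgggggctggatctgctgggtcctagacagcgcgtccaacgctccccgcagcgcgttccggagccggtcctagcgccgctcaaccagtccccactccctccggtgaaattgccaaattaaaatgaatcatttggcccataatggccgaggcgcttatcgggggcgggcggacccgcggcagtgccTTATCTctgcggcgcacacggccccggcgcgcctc
ZFPM1: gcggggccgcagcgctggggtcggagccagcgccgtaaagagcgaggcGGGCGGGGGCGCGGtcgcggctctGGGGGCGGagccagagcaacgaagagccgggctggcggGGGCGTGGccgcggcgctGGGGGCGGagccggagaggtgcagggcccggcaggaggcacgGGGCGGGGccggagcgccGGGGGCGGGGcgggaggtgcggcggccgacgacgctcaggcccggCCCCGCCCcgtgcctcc
KLF1 held 2 GATA motifs and TAL1 held 1, and 22.3% of 35116 promoters of that length held at least 1. ZFPM1 held 9 overlapping or separate CACCC-type matches, a motif present in 53.4% of promoters. The MYB motif (AACTG or AACGG on either strand), present in 45.6% of promoters, was in none of these 3 windows. It was found once each in 1 window of GATA2, TAL1 and LYL1 and 2 times in 1 window of GFI1B. The E-box CAGNTG, present in 42.5% of promoters, occurred once in the KLF1 window, and no window of these genes held the NF-E2 motif (0.336% of promoters). A match describes letters only and was not tested as a binding site.

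The gene count table held 16552237 to 24462819 counts per library and the bin files 36563252 to 41243796. Levels are given as CPM, counts scaled to the size of the library with edgeR's TMM factors, and levels set between genes as CPM per kb of annotated exon. The level of MYB itself ranged from 210 to 219 CPM with the empty vector, 222 to 231 CPM in the libraries labelled MYB overexpression and 202 to 217 CPM in those labelled NMYB overexpression (log2 fold change of MYB 0.08 and -0.03 against empty vector, edgeR adjusted p = 0.230 and 0.727). All 3 MYB libraries were above the empty vector libraries, as 19.8% of genes were, but by little, and the NMYB libraries overlapped them. Neither difference passed the test, so the groups are called by their labels. The levels of the eRNAs were not analysed here. The line's markers were present in the gene table, with TFRC at 890 to 1223 CPM and HBG1 at 211 to 248 CPM. Defining markers of B cells (MS4A1) and kidney lines (PAX2) were at 0 in that table. KRT19 stood at 102 to 150 CPM and EPCAM at 54.9 to 65.7 CPM. Among the bin libraries, 34kn control 1 stood apart from the other members of its group, and results are given without it where that changes them.

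All 10 factors were well detected with the empty vector, and their levels spanned 4.49 to 170 CPM per kb. GATA1 was highest (170 ± 4.46 CPM per kb, SD, n = 3), followed by the adaptor LDB1 (108 ± 0.817) and NFE2 (103 ± 1.84). KLF1 (67.5 ± 7.33) and GATA2 (61.5 ± 3.73) overlapped in their library values. TAL1 (31.6 ± 0.525), LMO2 (29.5 ± 0.984) and LYL1 (28.6 ± 7.35) formed the next step, where LYL1 overlapped both others. The repressor GFI1B (14.6 ± 0.471) and the GATA1 cofactor ZFPM1 (4.49 ± 1.05) were lowest. This scale divides by all annotated exon, also stretches with few or no counts, so the order depends on the annotation. In the 34kn experiment 12 of 28 GFI1B bins and 11 of 16 TAL1 bins had enough counts to be tested, against 17 of 17 for LDB1. In the bin files, which were counted another way and are not set against the gene table, GATA1 was again highest (125 ± 14.7 CPM per kb in the 34kn control) and ZFPM1 lowest (5.97 ± 0.467).

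The libraries labelled MYB overexpression had lower levels of 6 of the 10 factors and a higher level of KLF1. The GATA2, LDB1 and KLF1 calls did not hold in most fits that left out 1 library. Of the 10 factors, 6 fell (LMO2, NFE2, GATA1, GFI1B, GATA2 and LDB1), 1 rose (KLF1), and TAL1, LYL1 and ZFPM1 did not pass the test, where 22.3% of the 15823 genes tested were called (12.7% lower and 9.62% higher; edgeR's quasi-likelihood test with Benjamini-Hochberg adjusted p below 0.05). The median log2 fold change was -0.16 over the 10 factors and 0.01 over all genes tested. In bulk RNA, fewer cells of a kind and less RNA per cell cannot be told apart.

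**Figure D1:**
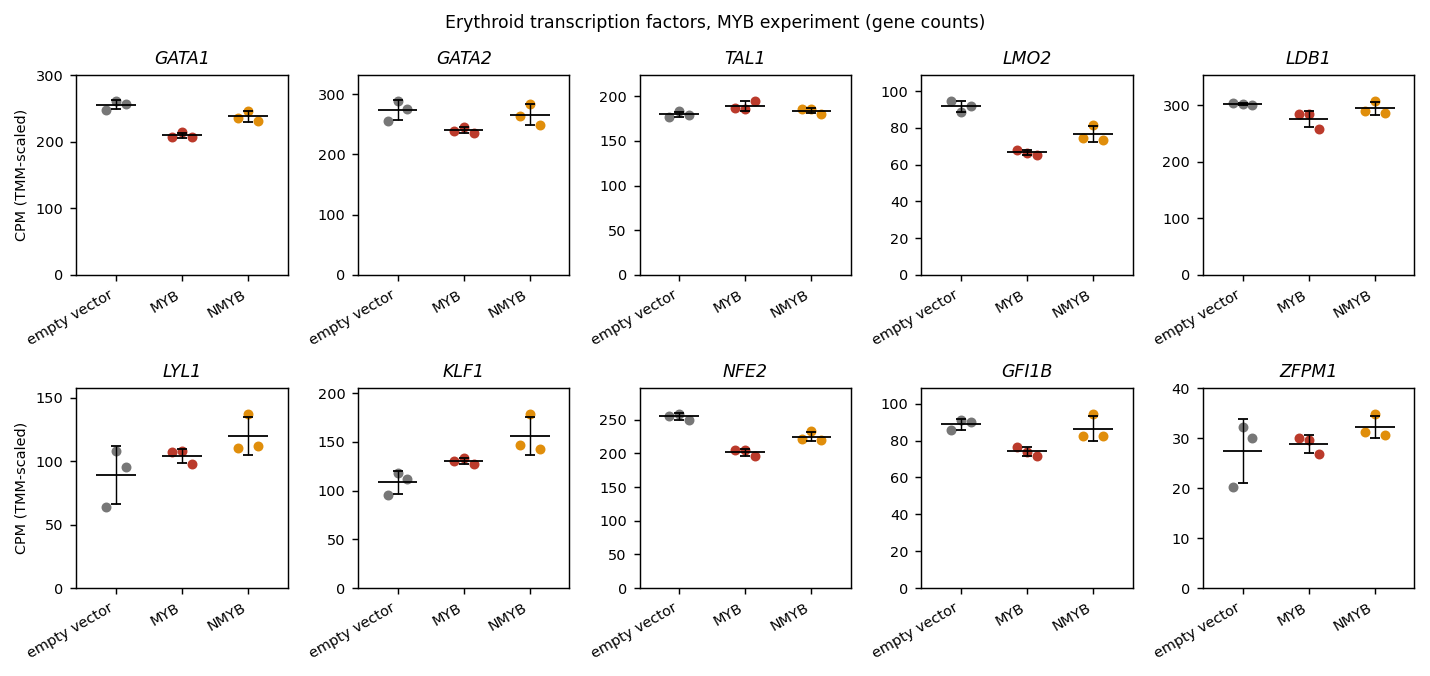
Level of each factor (y axis, CPM scaled by TMM, from 0) in the 3 empty vector, 3 MYB and 3 NMYB libraries. Points are libraries, horizontal lines are means and bars are SDs; LMO2, NFE2 and GATA1 sit highest with the empty vector and lowest in the MYB libraries, without overlap between any of the 3 groups, and KLF1 sits lowest with the empty vector and highest in the NMYB libraries.

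GATA1, the central activator of red cell genes, measured 249, 262 and 256 CPM in the empty vector libraries, 207, 214 and 207 CPM in the MYB libraries and 236, 247 and 231 CPM in the NMYB libraries. No library of one group fell within the range of another. GATA1 fell by 0.29 on the log2 scale in the MYB libraries (SE 0.0431, edgeR adjusted p = 8e-05), and its log2 fold change in the NMYB libraries was -0.10 (SE 0.0432, edgeR adjusted p = 0.0904). GATA2, which acts earlier in progenitors, measured 256, 290 and 276 CPM, then 240, 246 and 236 CPM, then 264, 284 and 249 CPM in the same order of groups. It fell by 0.19 in the MYB libraries (log2, SE 0.0523, edgeR adjusted p = 0.0135), with no overlap with the empty vector, while the NMYB and empty vector libraries overlapped (log2 fold change -0.04, edgeR adjusted p = 0.594). The GATA2 call was lost when any 1 of 4 of the 6 libraries was left out (empty vector 2 or 3, MYB 1 or 3; edgeR adjusted p 0.0521 to 0.0942).

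ZFPM1, the cofactor that GATA1 needs at many of its sites, ranged from 20.2 to 32.2 CPM with the empty vector, measured 29.98, 29.7 and 26.8 CPM in the MYB libraries and 31.3, 34.8 and 30.7 CPM in the NMYB libraries. Empty vector library 1 was the lowest of the 9 and all 3 groups were otherwise close. The log2 fold changes were 0.08 and 0.24 (edgeR adjusted p = 0.740 and 0.258), with upper 95% limits of 1.31-fold and 1.46-fold.

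LMO2, the bridging protein of the TAL1 complex, showed the widest decrease of the 10. It measured 94.8, 88.7 and 91.9 CPM with the empty vector, 67.9, 66.5 and 65.4 CPM in the MYB libraries and 74.6, 81.4 and 73.5 CPM in the NMYB libraries, and the 3 groups did not overlap. LMO2 fell by 0.46 in the MYB libraries and by 0.26 in the NMYB libraries (log2, SE 0.0531 and 0.0532, edgeR adjusted p = 3.5e-06 and 0.00121). Its partner LDB1, which self-associates to join distant sites, measured 305, 302 and 300 CPM with the empty vector, 284, 284 and 258 CPM in the MYB libraries and 290, 308 and 286 CPM in the NMYB libraries. LDB1 fell by 0.13 in the MYB libraries (log2, SE 0.0459, edgeR adjusted p = 0.0441). That call was lost when any 1 of the 6 libraries was left out (edgeR adjusted p 0.0576 to 0.213) and in DESeq2 (adjusted p = 0.0699).

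TAL1, the basic helix-loop-helix member of the same complex, did not pass the test. It measured 177, 183 and 180 CPM with the empty vector, 186, 185 and 195 CPM in the MYB libraries and 186, 185 and 180 CPM in the NMYB libraries. The MYB libraries were all above the empty vector libraries, yet the log2 fold change was 0.07 (SE 0.0429, edgeR adjusted p = 0.259). Its relative LYL1 measured 63.6, 108 and 95.5 CPM with the empty vector, 107, 108 and 97.7 CPM in the MYB libraries and 110, 137 and 112 CPM in the NMYB libraries. The spread lay mostly within the empty vector group, whose library 1 was low for LYL1 as it was for ZFPM1. The LYL1 log2 fold changes were 0.23 and 0.43 (edgeR adjusted p = 0.454 and 0.157). Without empty vector library 2, LYL1 passed the test in the NMYB comparison (log2 fold change 0.58, edgeR adjusted p = 0.036).

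KLF1, the CACCC-box activator, was the one factor called higher. It measured 95.6, 118 and 112 CPM with the empty vector, 130, 134 and 128 CPM in the MYB libraries and 147, 179 and 143 CPM in the NMYB libraries. The 3 groups did not overlap, and NMYB library 2 was the highest. KLF1 rose by 0.26 in the MYB libraries and by 0.52 in the NMYB libraries (log2, SE 0.0869 for both, edgeR adjusted p = 0.0454 and 8e-04). The first of these calls was lost when any 1 of 5 of the 6 libraries was left out (all but empty vector 2; edgeR adjusted p 0.0515 to 0.104).

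NFE2, the erythroid subunit of NF-E2, measured 256, 259 and 250 CPM with the empty vector, 205, 204 and 196 CPM in the MYB libraries and 222, 234 and 220 CPM in the NMYB libraries. The groups did not overlap, and NFE2 fell by 0.34 and by 0.18 (log2, SE 0.0429 and 0.0430, edgeR adjusted p = 1.23e-05 and 0.00489). The repressor GFI1B measured 85.6, 90.9 and 90.1 CPM with the empty vector, 76.6, 73.9 and 71.8 CPM in the MYB libraries and 82.5, 94.4 and 82.4 CPM in the NMYB libraries. GFI1B fell by 0.26 in the MYB libraries (log2, SE 0.0579, edgeR adjusted p = 0.00294), and its log2 fold change in the NMYB libraries was -0.04 (edgeR adjusted p = 0.658).

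In the NMYB libraries as a whole 1 factor rose (KLF1) and 2 fell (LMO2 and NFE2), where 24.9% of genes were called (12.6% higher and 12.4% lower). The median log2 fold change was -0.04 over the factors and 0.01 over all genes. Both comparisons used the same 3 empty vector libraries, so their values are given side by side and not set against each other.

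**Figure D2:**
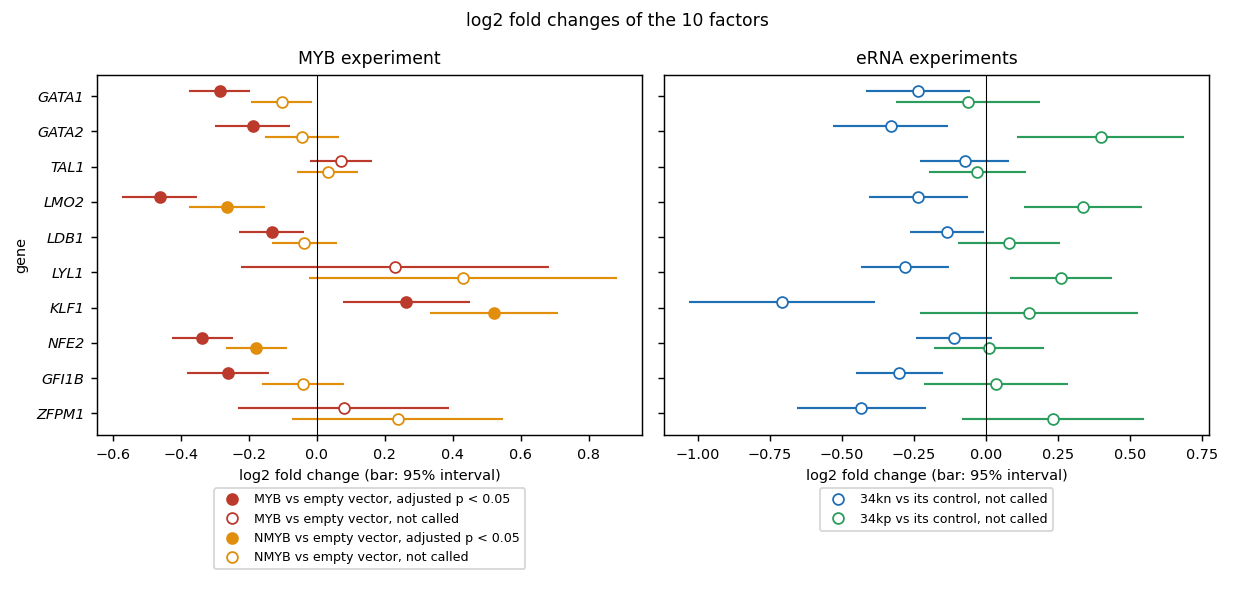
log2 fold change of each factor (x axis, with its 95% interval) for the MYB and NMYB comparisons with the empty vector (left) and for the 34kn and 34kp comparisons with their own controls (right). Filled points have an edgeR adjusted p below 0.05; 7 factors are filled for MYB, 3 for NMYB and none for either eRNA, where all 10 points of 34kn lie below 0.

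The direct comparison of the constructs was the test of their difference. Of the 10 factors, 9 were higher in every NMYB library than in every MYB library, TAL1 being the one that overlapped, where 13.1% of all genes were separated in that direction and 9.75% in the other. GATA1 alone passed the test (log2 difference 0.18, SE 0.0432, edgeR adjusted p = 0.0474), where 1.14% of genes were called. GFI1B (0.22, edgeR adjusted p = 0.0644), LMO2 (0.20, 0.0676) and NFE2 (0.16, 0.0682) came next, and KLF1 (0.26) had an edgeR adjusted p of 0.148. The GATA1 call was lost with RLE scaling (edgeR adjusted p = 0.0512) and when any 1 of 5 of the 6 libraries was left out (all but NMYB 3; edgeR adjusted p 0.0689 to 0.224).

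A library property that differed here, mostly through NMYB library 2, was the dependence of counts on GC content. For each library, log2 deviations from the mean of all libraries were regressed on the GC content of each gene's longest annotated transcript. NMYB library 2 had the steepest slope of the 9 (0.157 log2 units per 10 GC points, against -0.084 to 0.0293 in the others). The slopes were -0.0326, 0.00489 and -0.084 in the MYB libraries and 0.0114, 0.157 and 0.00283 in the NMYB libraries. These groups overlapped. The factors' longest annotated transcripts are mostly GC-rich, from 44.7% in GFI1B to 69.0% in ZFPM1. These need not be the transcripts expressed here. In the 34kn experiment 12 of the 28 GFI1B bins had enough counts to be tested. With each library's GC trend removed, an alternative added after the data were seen, the GATA1 difference between constructs was 0.07 (edgeR adjusted p = 0.320), that of KLF1 was 0.07 (edgeR adjusted p = 0.261) and that of GFI1B was 0.25 (edgeR adjusted p = 0.0275), where 4.54% of genes were called. The median over the factors was then 0.07, against 0.17 before. Against the empty vector, removing the trend left the 6 lower calls and KLF1 in the MYB libraries and added TAL1 (log2 fold change 0.10, edgeR adjusted p = 0.0269), where 32.7% of genes were called. In the NMYB libraries it made GATA1 (-0.19), GATA2 (-0.11) and LDB1 (-0.11) pass the test as lower (edgeR adjusted p = 3.32e-05, 0.00493 and 0.0124), where 32.8% of genes were called. KLF1 was called higher there at 0.31, against 0.52 before.

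Partners and relatives of the factors did not move in one direction in either comparison, in which 22.3% (MYB) and 24.9% (NMYB) of all genes were called. Of the 15 TAL1 complex partners tested in the MYB comparison, 4 rose and 1 fell, among them ID2, an inhibitor of helix-loop-helix pairing (fell by 0.66 on the log2 scale), RUNX1, a progenitor factor (rose by 0.35), and TCF4, an E protein (rose by 0.27). Their median was 0.07. In the NMYB comparison 4 rose and 2 fell, with ID1 higher by 0.67 and ID2 lower (log2 fold change -0.56). ID1 was also the one list gene called between the constructs (0.57 higher with NMYB on the log2 scale, edgeR adjusted p = 0.0418).

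Of the 21 corepressor genes of GATA1, ZFPM1 and GFI1B, 2 rose and 4 fell with MYB and 2 rose and 5 fell with NMYB. The named ones were PHF21A (log2 fold change -0.27 and -0.29) and RCOR1 (-0.25 and -0.28), both of the demethylase complex that GFI1B recruits, and ZFPM2, the relative of ZFPM1 (0.25 with MYB), beside MTA3 (-0.23 with NMYB). Of 8 NF-E2 partners and relatives, 1 rose and 2 fell with MYB and 1 rose and 4 fell with NMYB, among them the small MAF gene MAFF (-0.52 and -0.42) and BACH2, a repressor that also pairs with MAF proteins (-0.37 and -0.57). Of 15 KLF and SP genes tested, 3 rose and 1 fell with MYB and 1 rose and 3 fell with NMYB. KLF10 fell in both (-0.65 and -0.47), KLF16 rose in both (0.25 and 0.36), and KLF4 rose with MYB from 0.325 to 0.777 CPM, a low level.

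Among 6 tested factors of other blood lineages CEBPB, a myeloid factor, rose in both comparisons (log2 fold change 0.53 and 0.99), and SPI1, the antagonist of GATA1 known as PU.1, fell with MYB (-0.39). Among 39 tested erythroid target genes, 5 rose and 14 fell with MYB (median -0.11), where 9.62% and 12.7% of all genes did, and 6 rose and 8 fell with NMYB (median -0.02). The largest were decreases of TRIM10 (log2 fold change -1.79 and -1.73) and of the red cell anion exchanger SLC4A1 (-0.70 and -0.58). HBE1, embryonic globin, was lower with MYB (-0.71) and GYPC, a membrane glycoprotein, higher with NMYB (0.44). TRIM10, SLC4A1 and HBE1 were at low levels, going from 4.97 to 1.44, 3.24 to 1.97 and 2.44 to 1.5 CPM between the empty vector and MYB libraries.

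Markers of other cell types also differed between these groups. The summed T cell list of 4 genes measured 31.4 to 32.3 CPM with the empty vector, 12.2 to 14.8 CPM in the MYB libraries and 15.7 to 17.1 CPM in the NMYB libraries. That sum was nearly all CD3D (11.9 to 31.8 CPM), with CD3E, CD3G and CD2 each at most 0.515 CPM. The summed monocyte list measured 23.7 to 28.5 CPM, 31.9 to 37.1 CPM and 36.0 to 39.4 CPM in the same groups. It was nearly all LYZ, with CD14, CSF1R and FCGR3A each at most 0.651 CPM. The epithelial and kidney list, nearly all KRT19 and EPCAM, summed to 201 to 211 CPM with the empty vector, 157 to 171 CPM with MYB and 180 to 207 CPM with NMYB. The fibroblast list summed to 11.4 to 11.6 CPM, 8.77 to 9.23 CPM and 9.29 to 9.98 CPM, and the B cell list to 4.55 to 5.09 CPM, 3.24 to 4.24 CPM and 3.99 to 4.63 CPM. The 10 markers of the line itself summed to 1724 to 1887 CPM, 1537 to 1666 CPM and 1588 to 1649 CPM. The part of these differences in the results was not tested.

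In the eRNA experiments no factor passed the test against its own control. With 34kn, each of the 10 had a negative log2 fold change, from -0.71 for KLF1 to -0.07 for TAL1, and no gene of 16116 was called (0.0%). At an unadjusted p below 0.05 edgeR counted 8 of the 10 factors, all lower, where 23.3% of genes reached it and 13.5% were lower ones. DESeq2 called 5 of the 10 lower, where it called 1280 genes (7.94%, and 5.44% lower). Of the 10 factors, 8 were lower in every 34kn library than in every control library, where 14.8% of genes were separated that way. The median log2 fold change was -0.26 over the factors and 0.00 over all genes.

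**Figure D3:**
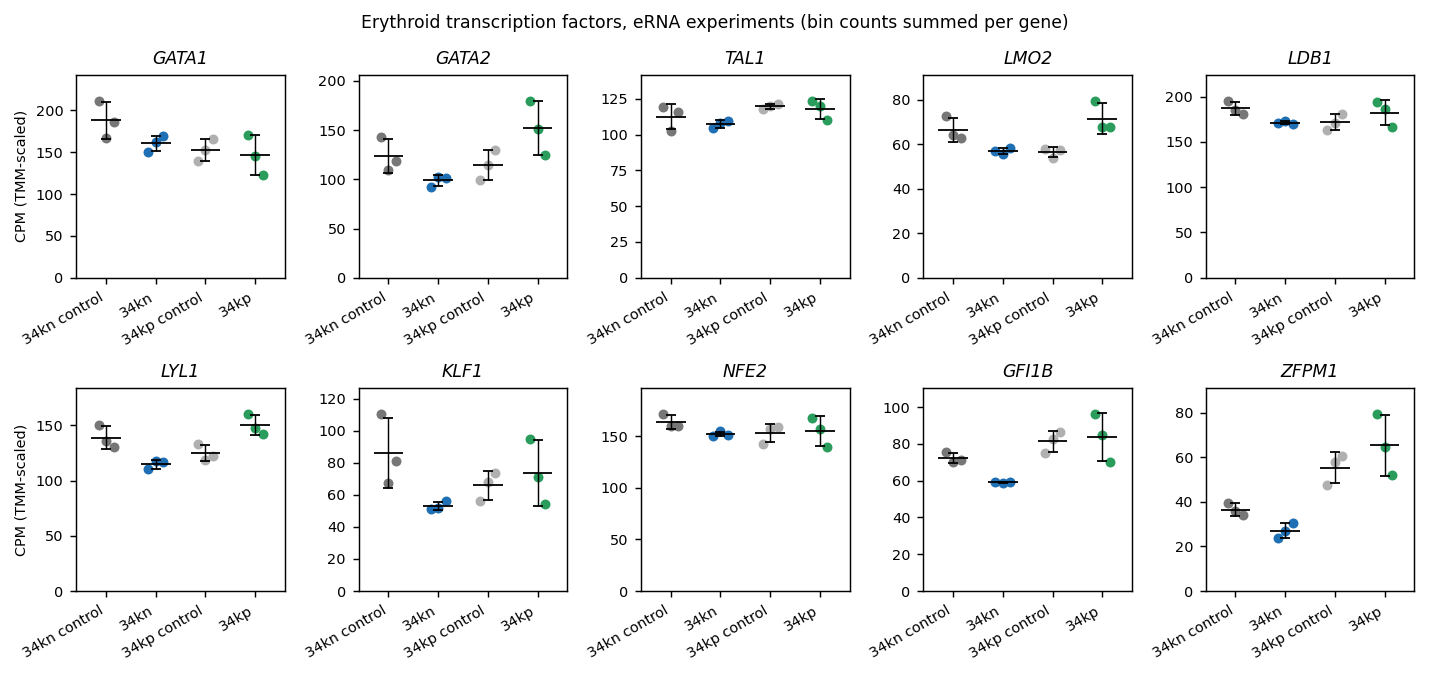
Level of each factor (y axis, CPM scaled by TMM, from 0) in the 12 libraries of the eRNA experiments, from bin counts summed per gene. Points are libraries in the order of their replicate numbers, horizontal lines are means and bars are SDs; the 34kn libraries lie close together and below most of their controls, and 34kp libraries spread more widely than their controls for KLF1, GATA2 and ZFPM1.

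KLF1 measured 110, 67.7 and 81.3 CPM in the 34kn controls and 51.5, 51.8 and 56.3 CPM in the 34kn libraries. The groups did not overlap, and control 1 was far above the other controls. Its log2 fold change was -0.71 (SE 0.146, edgeR adjusted p = 0.0668), and -0.49 without control 1, where it passed the test (edgeR adjusted p = 0.00975). ZFPM1 measured 39.6, 35.8 and 34.0 CPM in the controls and 24.0, 26.9 and 30.6 CPM with 34kn (log2 fold change -0.43, SE 0.103, edgeR adjusted p = 0.0715). GFI1B measured 75.6, 70.3 and 71.3 CPM in the controls and 59.3, 58.7 and 59.2 CPM with 34kn, the tightest separation among the factors (log2 fold change -0.30, SE 0.0695, edgeR adjusted p = 0.0696).

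GATA2 measured 143, 110 and 118 CPM in the 34kn controls and 92.5, 103 and 101 CPM with 34kn (log2 fold change -0.33, edgeR adjusted p = 0.0851). LYL1 measured 150, 136 and 130 CPM, then 110, 118 and 117 CPM (-0.28, edgeR adjusted p = 0.0742), and LMO2 measured 72.8, 64.0 and 62.9 CPM, then 56.7, 55.5 and 58.3 CPM (-0.23, edgeR adjusted p = 0.118). For each of these 3 every 34kn library was below every control. GATA1 ranged from 167 to 211 CPM in the controls and from 151 to 169 CPM with 34kn, which overlapped (-0.24, edgeR adjusted p = 0.129). LDB1 (-0.13), NFE2 (-0.11) and TAL1 (-0.07) differed least. Without 34kn control 1, LYL1, KLF1 and GFI1B passed the test as lower, and without 34kn control 2 all but TAL1, LDB1 and NFE2 did. The number of all genes called also changed with the library left out, over the range given in the last section. The share of all genes called in these fits is not given, so these counts of factors cannot be set against it.

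The GC slopes of the libraries were separated in the same way as these groups. The 3 controls had slopes of 0.219, 0.0151 and 0.0947 log2 units per 10 GC points, and the 3 libraries with 34kn had -0.0897, -0.0599 and -0.0487. With the GC trend removed the median over the factors was -0.08, with 7 negative and 3 positive. KLF1 was then at -0.37 and ZFPM1 at -0.05 (edgeR adjusted p = 0.167 and 0.879). GFI1B, the factor whose longest annotated transcript has the lowest GC content, was at -0.40 (edgeR adjusted p = 0.0557). Whether that transcript stands for the GFI1B RNA counted here was not tested. With the trend removed edgeR called 4 genes in all (0.0289%), and no factor was among them.

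**Figure D4:**
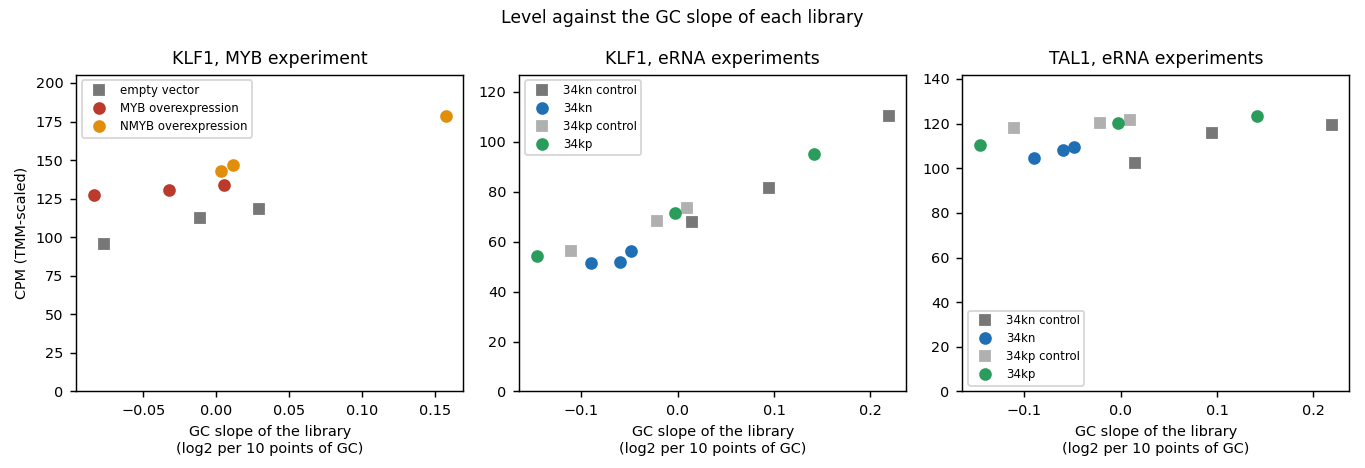
Level (y axis, CPM scaled by TMM, from 0) against the GC slope of the library (x axis, log2 units per 10 points of GC) for KLF1 in the MYB experiment and for KLF1 and TAL1 in the eRNA experiments. Squares are control libraries and circles overexpression libraries; in the eRNA experiments KLF1 rises with the slope across all 4 groups, from 51.5 to 110 CPM, and TAL1 stays between 103 and 123 CPM.

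Over the 12 bin libraries the level of KLF1, whose longest annotated transcript is 65.7% GC, followed the library's slope within each group and between groups. The library with the steepest positive slope (34kn control 1) had the highest KLF1 level, and the library with the lowest slope (34kp 3, -0.146) had 54.3 CPM, near the lowest. TAL1, at 53.2% GC, varied little across the same libraries. GFI1B, at 44.7% the lowest, ran from 58.7 to 96.0 CPM and followed the slope within 3 of the 4 groups, all but 34kn. ZFPM1, at 69.0% the highest, was lower in the 34kn controls than in the 34kp controls, although the 34kn controls had the higher slopes. The part of GC content in each library's counts was measured only through the trend removal above.

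With 34kp no factor passed the test, where 2.35% of 16662 genes were called. LMO2 and LYL1 were higher in every 34kp library than in every control, where 10.9% of genes were. LMO2 measured 57.9, 53.7 and 57.4 CPM in the 34kp controls and 79.4, 67.5 and 67.6 CPM with 34kp (log2 fold change 0.34, SE 0.0927, edgeR adjusted p = 0.0880). LYL1 measured 133, 119 and 123 CPM in the controls and 160, 148 and 143 CPM with 34kp (0.26, SE 0.0808, edgeR adjusted p = 0.120). GATA2 measured 99.7, 114 and 130 CPM in the controls and 180, 152 and 124 CPM with 34kp, which overlapped through 34kp library 3 (0.40, SE 0.132, edgeR adjusted p = 0.146).

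Without 34kp library 3, GATA2, LMO2 and LYL1 passed the test (log2 fold change 0.53, 0.38 and 0.30). The share of all genes called in that fit is not given, so this count of factors cannot be set against it. DESeq2 called the same 3 with all libraries, where it called 5.86% of genes. Without 34kp library 1 no factor passed edgeR's test, and 5 log2 fold changes were positive and 5 negative. The median over the factors was then -0.006, against 0.116 with all libraries. The GC slopes were -0.111, -0.0217 and 0.00992 in the 34kp controls and 0.141, -0.00298 and -0.146 with 34kp, so that these groups overlapped. With the GC trend removed GATA2 (0.34) and LMO2 (0.30) passed (edgeR adjusted p = 0.00777 and 0.014), where 10.3% of genes did. The remaining 7 factors had log2 fold changes from -0.06 for GATA1 to 0.23 for ZFPM1, and their groups overlapped. ZFPM1 also differed between the controls themselves, at 34.0 to 39.6 CPM in the 34kn controls and 47.7 to 60.8 CPM in the 34kp controls.

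The difference between both effects was tested over all 12 libraries. The 34kn effect was below the 34kp effect for LYL1 (log2 difference -0.54, SE 0.104, edgeR adjusted p = 0.00882), LMO2 (-0.57, SE 0.118, edgeR adjusted p = 0.0126) and GATA2 (-0.73, SE 0.179, edgeR adjusted p = 0.028), where 6.36% of 17323 genes were called and 3.53% in that direction. ZFPM1 (-0.66, edgeR adjusted p = 0.0516) and KLF1 (-0.86, edgeR adjusted p = 0.0557) fell just outside the threshold. The remaining 5 differences were negative as well, from -0.33 for GFI1B to -0.04 for TAL1, and the median over the factors was -0.44 against 0.02 over all genes. With the GC trend removed, where 7.68% of genes were called, the same 3 passed, at -0.32, -0.40 and -0.44 for LYL1, LMO2 and GATA2, and the median was -0.22. The LYL1 and LMO2 calls held when each of the 12 libraries was left out in turn, and that of GATA2 was lost in 7 of those 12 fits (edgeR adjusted p 0.0526 to 0.0794).

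Among the listed partners and targets none was called with 34kn (edgeR), where no gene was. At the unadjusted level, 7 of 15 TAL1 complex partners, 6 of 17 corepressor genes, 1 of 5 NF-E2 relatives, 3 of 15 KLF and SP genes, 2 of 8 factors of other lineages and 11 of 32 target genes had a p below 0.05, where 23.3% of all genes did. With 34kp, 2 of 15 TAL1 complex partners rose, ID1 (log2 fold change 0.56, edgeR adjusted p = 0.00796) and the corepressor CBFA2T3, also called ETO2 (0.32, edgeR adjusted p = 0.0418). Of 31 tested erythroid target genes 6 fell and none rose, where 1.72% of all genes fell and 0.63% rose. ALAS2, the erythroid enzyme that starts haem synthesis, went from 140 ± 3.91 to 91.7 ± 5.83 CPM (SD, n = 3), falling by 0.61 on the log2 scale (edgeR adjusted p = 0.00309). RHCE, a blood group antigen, was lower by a log2 fold change of -0.49, and GYPB, a glycophorin, by -0.48. No corepressor, NF-E2 partner, KLF relative or factor of another lineage was called with 34kp by edgeR. The difference between both effects was called for ID1 (log2 difference -0.80) and CBFA2T3 (-0.54) among the TAL1 complex partners. Of 32 tested target genes 10 were called, 9 higher and 1 lower, where 2.83% and 3.53% of all genes were. The largest were KIT (1.43), which was at most 5.29 CPM in these libraries, the alpha globin gene HBA2 (-0.94) and ALAS2 (0.80). The difference was also called for the corepressor genes GATAD2A (-0.58) and PHF21A (0.44) and for KLF16 (-0.77).

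Exon usage was the question of the eRNA experiments, and 3 of the factors' bins were called with 34kn, each lower relative to its gene: TAL1 bin 16, LDB1 bin 17 and LYL1 bin 9. They were 3 of 112 bins tested, where 0.794% of 216197 bins were called and 0.772% lower (edgeR diffSpliceDGE, adjusted p below 0.05). All 3 genes are on the minus strand and bins are numbered by ascending coordinate, so that each is the most upstream bin tested in its gene. Of 7914 genes' most upstream tested bins 4.94% were called lower, and of bins that were neither most upstream nor most downstream 0.58%.

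TAL1 bin 16 held 2.30%, 0.801% and 1.58% of the gene's bin counts in the 34kn controls and 0.372%, 0.405% and 0.682% with 34kn. The counts behind these shares were 106, 32 and 66 and then 14, 17 and 29. The relative log2 fold change was -1.70 (edgeR adjusted p = 0.0116), and the groups did not overlap. If the bins are those of GENCODE 29, which gives TAL1 the same number of bins (16), this is the bin at the 5′ end of the gene, chr1:47232167-47232220 on GRCh38, downstream of the promoter window printed above. That match rests on the number of bins, since the widths and counts of the 16 bins were only weakly related (Spearman rho 0.212). At the other end of the gene, bin 3, in the exon block at the 3′ end by the same annotation (chr1:47218688-47220174), held 35.2%, 50.4% and 44.0% in the controls and 55.4%, 54.0% and 53.0% with 34kn (relative log2 fold change 0.34, edgeR adjusted p = 0.622).

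**Figure D5:**
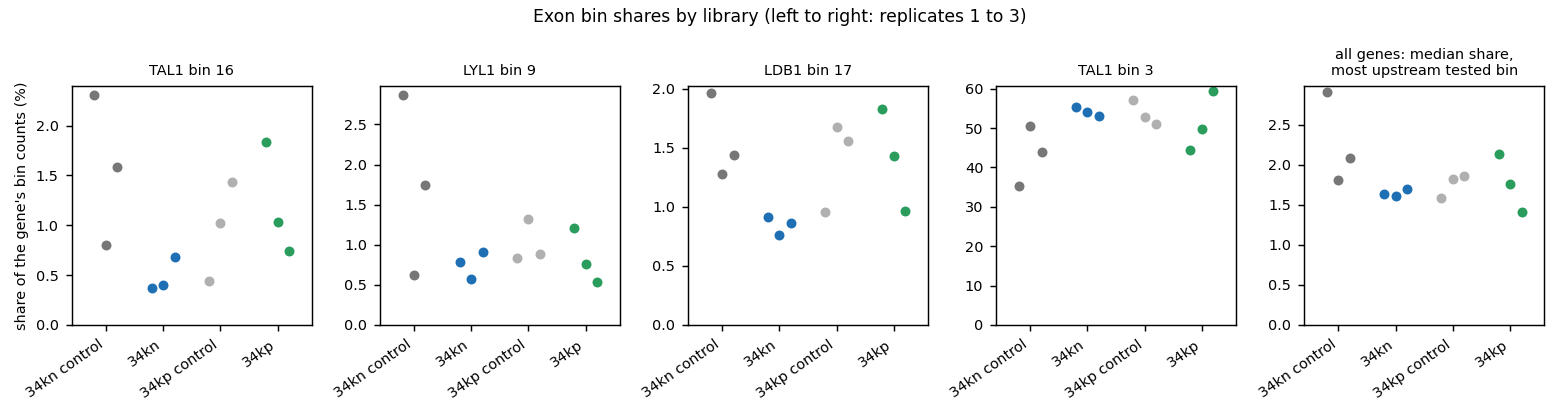
Share of the gene's bin counts (y axis, percent, from 0) in TAL1 bin 16, LYL1 bin 9, LDB1 bin 17 and TAL1 bin 3 in each of the 12 bin libraries, and the median share of the most upstream tested bin over all genes (right). Points are libraries; 34kn control 1 has the highest share in all 3 upstream bins and in the median over genes (2.91%), and the lowest in TAL1 bin 3 (35.2%).

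LYL1 bin 9 held 2.87%, 0.621% and 1.75% in the controls and 0.783%, 0.568% and 0.905% with 34kn (relative log2 fold change -1.25, edgeR adjusted p = 0.0211). The groups overlapped through control 2. LDB1 bin 17 held 1.97%, 1.28% and 1.44% in the controls and 0.913%, 0.760% and 0.864% with 34kn, without overlap (-0.90, edgeR adjusted p = 0.0209). By gene, TAL1 (adjusted p = 0.0123), LYL1 (0.0205) and LDB1 (0.0314) passed edgeR's Simes test, where 7.24% of 11407 genes did. GATA1, GATA2, LMO2, KLF1, NFE2, GFI1B and ZFPM1 did not, with gene-level adjusted p from 0.346 upward.

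The bin calls depended on most of the 6 libraries. That of TAL1 was lost in 4 of the 6 fits that left out 1 library (all but those without control 2 or 34kn 3; edgeR adjusted p 0.0748 to 0.266), and those of LYL1 and LDB1 in 5 of 6 (all but that without control 2; edgeR adjusted p 0.0782 to 0.767 and 0.0569 to 0.348). The smallest relative changes came without 34kn control 1, where the relative log2 fold changes were -1.29 for TAL1, -0.63 for LYL1 and -0.68 for LDB1 (edgeR adjusted p = 0.266, 0.767 and 0.307). The share of the most upstream bin moved with the library over all genes: its median was 2.91%, 1.81% and 2.09% in the 34kn controls and 1.64%, 1.61% and 1.70% with 34kn. The shares of all 3 called bins ranked the 3 controls in the same order as that median. The part of the library in the calls was otherwise not tested.

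No bin of the remaining 7 factors passed the test. The bin with the largest share held 54.7 ± 1.16% and 55.5 ± 0.766% of NFE2 counts in control and 34kn libraries (SD, n = 3), 22.5 ± 0.845% and 23.5 ± 0.624% of GATA2 counts and 22.0 ± 0.995% and 22.5 ± 2.39% of GFI1B counts. In LMO2 it held 32.6 ± 2.17% and 37.1 ± 1.17% (bin 1, edgeR adjusted p = 0.815), the 34kn libraries being higher. In ZFPM1 it held 37.4 ± 2.79% and 31.2 ± 2.87% (bin 20, edgeR adjusted p = 0.698) and in KLF1 53.3 ± 2.35% and 49.1 ± 1.23% (bin 2, edgeR adjusted p = 0.976), the 34kn libraries being lower in both.

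With 34kp none of the 113 bins tested was called, where edgeR called 0.00862% of 220442 bins, and 1 was at an unadjusted p below 0.05 (GATA1 bin 1). TAL1 bin 16 held 0.442%, 1.03% and 1.43% in the 34kp controls and 1.84%, 1.04% and 0.740% with 34kp. The groups overlapped, with the lowest share in control 1 and the highest in 34kp library 1. LDB1 bin 17 held 0.956%, 1.68% and 1.56% in the controls and 1.83%, 1.43% and 0.962% with 34kp. In both genes 34kp library 1 was the highest of its group, and it also had the highest median share of upstream bins in that experiment (2.14%).

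The factors also differed in which of them moved together over the 9 libraries of the gene table. The highest Pearson correlation of log2 CPM was between LMO2 and NFE2 (r = 0.982, n = 9 libraries in 3 groups), then LYL1 with ZFPM1 (0.961) and GATA1 with NFE2 (0.959). TAL1 ran against LDB1 (-0.781) and NFE2 (-0.769). Over the 12 bin libraries the LMO2 and NFE2 correlation was 0.444, that of LYL1 and ZFPM1 was 0.636 and that of GATA1 and NFE2 was 0.857. There TAL1 ran with LDB1 (0.355) and NFE2 (0.369), the opposite sign to the gene table. Group differences, depth and GC slope are shared by the points in both sets.

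Among 8932 genes with a mean of at least 10 CPM, the gene most like KLF1 over the 9 libraries was PYCR3 (r = 0.994, and 0.717 over the 12 bin libraries). LYL1 was most like NCLN (0.990 and 0.856) and GFI1B most like TK1, thymidine kinase (0.986 and 0.712). GATA1 was most like SH3BGRL3 (0.986), NFE2 most like FAM83D (0.993), GATA2 most like AGTRAP (0.974), LDB1 most like SLC37A4 (0.976), ZFPM1 most like EPN1 (0.978) and TAL1 most like ACTR8 (0.933). Over the 12 bin libraries the values for GATA1, NFE2, GATA2, LDB1 and TAL1 with these genes were 0.079, -0.30, 0.527, -0.066 and -0.338. ZFPM1 with EPN1 had no value there.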

How the data were processed

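TRIzol was used to isolate RNA and a TruSeq kit to build the libraries, per the labels. The deposited gene counts and exon bin counts are raw read counts; the submitters' processing notes name Trimmomatic 0.93, STAR 2.7.10a, HISAT2 2.2.1, featureCounts 2.0.1 and GRCh38, and the annotation release and strand setting are not given in the sources used here. Bin counts were summed per gene identifier. Identifiers that join several genes were left out of the gene lists, and every named factor has its own identifier. Bin coordinates are given for TAL1 alone, from GENCODE 29, which has the same number of bins for it.

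Genes past filterByExpr (minimum count 10) were tested with edgeR 4.0.16 (TMM, robust quasi-likelihood, two-sided, Benjamini-Hochberg adjusted p below 0.05), over 9 libraries for the gene table, 6 for each eRNA experiment and 12 for the difference between them. Exon usage was tested with diffSpliceDGE, whose coefficients were converted from natural logs to log2. DEXSeq, named in the design text, was not used. Alternatives were DESeq2 1.42.0, limma 3.58.1 diffSplice, RLE scaling, other filters, a replicate block, other sets of libraries and leaving out each library; a lowess correction of each library's GC trend was added after the data were seen. The tests were tested on simulated data with known changes. All 21 replicate pairs differed by more than counting noise (chi-square per degree of freedom 1.59 to 51.7). Deviations from group means of same-numbered libraries of different groups correlated at -0.167 to 0.232. In the MYB experiment these were -0.0232 to 0.0994, against -0.122 to 0.0858 for differently numbered libraries. The main tests used no pairing, and whether the numbers pair the libraries was not settled. The factors and the 6 gene lists were chosen with earlier results of these data known. Named were all 10 factors in every comparison, and of each list at most the 3 called genes with the largest log2 fold change per comparison. Bins named were those called and, per factor, those with the largest share or relative change. For 1 factor the gene of most similar pattern is not reported here. R 4.3.3 and Python 3.11.15 were used.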

Additional observations from a re-analysis of the deposited data

Results flagged for a closer look

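The factors GATA2, LMO2 and LYL1 were picked out because their response to 34kn and to 34kp differed in the test of that difference over the 12 bin libraries. GATA2 had a log2 difference of -0.73 (edgeR adjusted p = 0.028), LMO2 of -0.57 (edgeR adjusted p = 0.0126) and LYL1 of -0.54 (edgeR adjusted p = 0.00882), each lower with 34kn than its control and higher with 34kp than its control. None of the single effects passed the test. LMO2 and LYL1 were separated from the controls in opposite directions in every library of both experiments, and for GATA2 34kp library 3 (124 CPM) lay within the range of its controls. The GC slopes of the libraries moved from positive to negative with 34kn, and with the GC trend removed the differences were -0.44, -0.40 and -0.32.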

How the results depend on the processing

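No factor's call changed sign in any alternative run; of the values for single factors and bins, 1006 stayed on their side of the threshold, 50 lost the call and 67 gained one. For NMYB against MYB, edgeR called 181 genes and 1 factor, DESeq2 401 and 3, no filter 656 and 2, the 6 libraries alone 60 and 0, GC trend removal 701 genes, and RLE scaling 0 factors. For 34kn against its control it called 0, DESeq2 1280 genes and 5 factors lower, no filter 1572 and 6, and GC trend removal 4 genes. For 34kp it called 392 genes and 0 factors, DESeq2 976 and 3 higher, no filter 997 and 2, all 12 libraries 817 and 2, and GC trend removal 1481 and 2. For the difference between the eRNA effects it called 1102 genes and 3 factors, DESeq2 2014 genes, and no filter 2085 and 5. GC trend removal gave 2 factors higher with MYB and 5 lower with NMYB. The cause was not tested.

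The replicate block was fitted although the labels do not say that the numbers pair the libraries. With the block, 1184 genes and 6 factors were called for NMYB against MYB, 71 genes for 34kp and 651 for the difference. For 34kp exon usage it gave 8 bins, against 19. LYL1 bin 9 lost its call under it (adjusted p = 0.0549), and GATA2 lost its in the difference (adjusted p = 0.0553).

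Leaving out 1 library at a time gave 0 to 1 factors higher with MYB and 1 to 3 with NMYB. It gave 0 to 323 genes and 0 to 2 factors between the constructs, 0 to 2982 genes and 0 to 7 factors for 34kn, 46 to 1175 genes and 0 to 3 factors for 34kp, and 380 to 2747 genes and 2 to 7 factors for the difference. For 34kn exon usage it gave 253 to 8391 bins, 0 to 11 bins of the factors and 0 to 5 of the genes, and for 34kp 4 to 60 bins. With 3 libraries a group, spread between libraries limits all of these counts.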
